A study of Mus musculus with 6 samples.

Results

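The genes described here are 9 secreted antagonists of bone morphogenetic proteins (BMPs) and activins, out of 55487 genes in the count table: Chrd, Chrdl1, Grem1, Fst, Fstl3, Nog, Nbl1, Sostdc1 and Bmper. Their rows were taken by gene symbol. The group was chosen by the differences in RNA-seq counts between knockout and control aortas, which were already known, so the values of that comparison are given as a description and support no claim about the group. The study deleted Prdm16, which encodes a zinc finger transcription factor and has been linked to coronary artery disease risk, in smooth muscle cells (SMCs) of adult mice and asked how the aortic transcriptome changes. RNA of the aorta, with the adventitia removed, was sequenced from 3 inducible smooth muscle-specific knockout mice (iSM KO) and 3 control mice (Control), all C57BL/6 males at baseline. The iSM KO mice were Myh11-CreERT2+; Prdm16 F/F, in which loxP sites flank exon 9, and the Control mice were Myh11-CreERT2+; Prdm16 W/W. Both groups received tamoxifen from 8 weeks of age, 1 mg per mouse per day for 10 days, and aortas were taken 60 days after the end of a 2-week washout.

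Both groups therefore carried the Cre transgene and were exposed to tamoxifen. The transgene is driven by the Myh11 promoter, which is active in smooth muscle throughout the body, and sits on the Y chromosome, so only males were used. The aorta also holds endothelial cells and fibroblasts in which the gene was not targeted.

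BMPs and activins are secreted ligands of the TGF-β family that bind pairs of type I and type II serine/threonine kinase receptors and signal through SMAD transcription factors. Secreted antagonists bind the ligand outside the cell and keep it from its receptors. Chordin, noggin and proteins of the DAN family act mainly on BMPs, whereas follistatin and follistatin-like 3 act mainly on activins and the related ligand myostatin. In the vessel wall BMP and activin signals are known to affect smooth muscle phenotype, endothelial growth and calcification.

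The 9 genes lie on 9 different chromosomes of GRCm38, the assembly also called mm10. The 3 genes related to chordin are Chrd on chromosome 16 (20733127 to 20742384, plus strand), Chrdl1 on the X chromosome (143285674 to 143394262, minus strand) and Bmper on chromosome 9 (23223076 to 23485200, plus strand). Of the DAN family, Grem1 lies on chromosome 2 (113746164 to 113758646, minus strand), Nbl1 on chromosome 4 (139082284 to 139092993, minus strand) and Sostdc1 on chromosome 12 (36314139 to 36318452, plus strand). Nog has a single exon on chromosome 11 (89300638 to 89302332, minus strand). Fst lies on chromosome 13 (114452290 to 114458951, minus strand) and Fstl3 on chromosome 10 (79777272 to 79782630, plus strand). Nbl1 is on the chromosome of the targeted gene, 15.22 Mb from Prdm16.

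Promoter sequences of 5 of the 9 genes were found in RefSeq (GRCm38.p6), those of Chrd, Grem1, Fstl3, Nbl1 and Bmper. The 250 bases before the start of Grem1, Nbl1 and Fstl3 are shown because these 3 genes had an FDR under 0.05 in the comparison described further on, while the windows of Chrd and Bmper belong to genes that did not. Each is written 5′ to 3′ on the strand of its gene, with a matched motif in capitals.
Grem1, chr2:113758649-113758898, minus strand: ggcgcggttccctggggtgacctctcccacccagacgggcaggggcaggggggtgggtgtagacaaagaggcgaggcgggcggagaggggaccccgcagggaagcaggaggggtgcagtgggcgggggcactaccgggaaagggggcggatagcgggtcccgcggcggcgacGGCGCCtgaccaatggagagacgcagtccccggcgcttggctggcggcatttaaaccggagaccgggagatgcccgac
Nbl1, chr4:139092971-139093220, minus strand: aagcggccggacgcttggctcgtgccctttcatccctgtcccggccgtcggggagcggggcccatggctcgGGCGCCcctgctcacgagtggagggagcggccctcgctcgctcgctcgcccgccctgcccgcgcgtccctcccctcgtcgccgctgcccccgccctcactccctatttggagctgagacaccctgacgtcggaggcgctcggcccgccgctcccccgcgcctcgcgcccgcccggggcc
Fstl3, chr10:79777024-79777273, plus strand: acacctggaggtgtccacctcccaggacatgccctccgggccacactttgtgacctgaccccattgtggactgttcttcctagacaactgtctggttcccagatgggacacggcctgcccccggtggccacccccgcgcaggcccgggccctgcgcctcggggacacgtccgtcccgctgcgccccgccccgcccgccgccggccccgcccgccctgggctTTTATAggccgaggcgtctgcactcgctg

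The motifs searched on both strands were GGCGCC and GGAGCC, GC-rich sequences that SMAD proteins can bind, the SMAD palindrome GTCTAGAC, and TATAAA, the core of the TATA box. The last bases of the Nbl1 and Fstl3 windows lie inside these genes as GENCODE annotates them. The capitals in the Grem1 and Nbl1 windows mark GGCGCC, which starts 78 bases before the Grem1 start and 179 bases before the Nbl1 start. Those in the Fstl3 window mark the reverse complement of TATAAA, 29 bases before the start. Chrd held GGCGCC 203 bases and GGAGCC 127 bases before its start, and Bmper held GGAGCC at 164, 81 and 27 bases. Of 32851 promoter windows of the same length, 9.59% held GGCGCC, 26.0% GGAGCC, 0.167% GTCTAGAC and 12.4% TATAAA. All 5 windows were rich in G and C, from 71.2% in Fstl3 to 78.0% in Chrd, against a median of 52.4% over all windows. They held 22 to 36 CpG dinucleotides, with a median of 6 over all windows. These matches describe the sequence and no binding was measured.

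The 6 libraries held 24911609 to 40460467 counts, of which protein-coding genes took 59.0% to 66.1% in Control and 65.4% to 67.6% in iSM KO aortas, lowest in Control replicate 3. Rn7sk, Rn7s1 and Rn7s2, which encode small noncoding RNAs, took 24.8% to 28.1% in Control and 22.8% to 24.1% in iSM KO libraries, with no overlap. The Control libraries also differed more from each other, with a chi-square per gene of 48.3 to 71.5 between pairs against 12.2 to 19.5 between iSM KO pairs. Levels are given as normalized counts in CPM, the count of a gene over its library total after scaling with edgeR's TMM factors. Differences were tested for 16565 genes with edgeR's quasi-likelihood test, whose Benjamini-Hochberg adjusted p-value is written FDR, and a gene is called changed at an FDR under 0.05 and a fold change over 2. For the whole Prdm16 gene, in which exon 9 cannot be separated, the Control libraries held 183, 223 and 179 CPM and the iSM KO libraries 93.8, 113 and 79.8 CPM. The 8 smooth muscle markers examined, among them Myh11 and Acta2, were present in every library and summed to 22500 to 27500 CPM in Control and 24300 to 26700 CPM in iSM KO aortas, a sum made up mostly of Acta2 and Myh11. Of the 8, 1 was called higher and none lower, and 3 were higher without overlap. Over all tested genes 1.40% were called higher, 1.38% were called lower, and 15.0% were higher without overlap. The 2 smooth muscle markers with an FDR under 0.05 are named after their values were seen. Des, which encodes the intermediate filament protein desmin, had 105 to 159 CPM in Control and 264 to 381 CPM in iSM KO libraries, a log2 fold change of 1.24 (edgeR FDR = 0.00381). Myocd, the gene of the smooth muscle coactivator myocardin, had 162 to 216 CPM against 290.0 to 329 CPM and was under the fold of 2 (log2 fold change 0.65, edgeR FDR = 0.0109). The 8 fibroblast markers summed to 2250 to 2690 CPM against 1740 to 1820 CPM, a sum made up mostly of Col1a1 and Col1a2. None of them was called, and all 8 estimates were lower in iSM KO aortas (median log2 fold change -0.65). Of 5 tested adipocyte markers 4 were called lower, and the 6 examined summed to 24.8 to 109 CPM against 8.08 to 12.6 CPM. With each library left out in turn, Fabp4 was called in all 6 fits, Adipoq in 4, Plin1 in 2 and Cidec in 1. Of 4 tested cartilage markers 3 were called lower, namely Acan, Sox9 and Comp, and the 5 examined summed to 105 to 119 CPM against 43.2 to 51.8 CPM. Summed endothelial, macrophage, Schwann cell, mesothelial, lymphocyte and red blood cell markers overlapped between the groups. By single gene, all 7 endothelial, 6 macrophage and 4 red blood cell markers were lower, with median log2 fold changes of -0.72, -0.57 and -0.63. The 3 tested Schwann cell markers were higher (median 0.17), and no gene of these 4 lists was called. The skeletal muscle markers stayed under 4 CPM in sum, and the 7 cardiomyocyte markers summed to 116 to 145 CPM in Control and 154 to 207 CPM in iSM KO aortas, nearly all of it Ryr2, with 4 of the 7 under 1 CPM in every library. What part these markers and the differences between libraries have in the values that follow was not tested, and in whole tissue fewer cells of a type cannot be told apart from less RNA per cell.

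Of the 9 antagonist genes 7 had counts over 10 in all samples of a group and were tested, while Nog and Sostdc1 did not reach this level. Chrdl1, Fst and Grem1 were called higher in iSM KO aortas, and none was called lower. Over all tested genes 1.40% were called higher and 1.38% lower. At any fold change 5 of the 7 had an FDR under 0.05, all higher, where 4.26% of all tested genes were higher and 3.30% lower at this FDR. The CPM of the groups did not overlap for 6 of the 7, all higher in iSM KO, where 15.0% of all tested genes showed no overlap in that direction. The median log2 fold change of the 7 was 0.58, against -0.014 over all tested genes. Since 2 genes fell out at the filter and the group was chosen with this contrast in view, these shares are not evidence about the group.

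**Figure D1:**
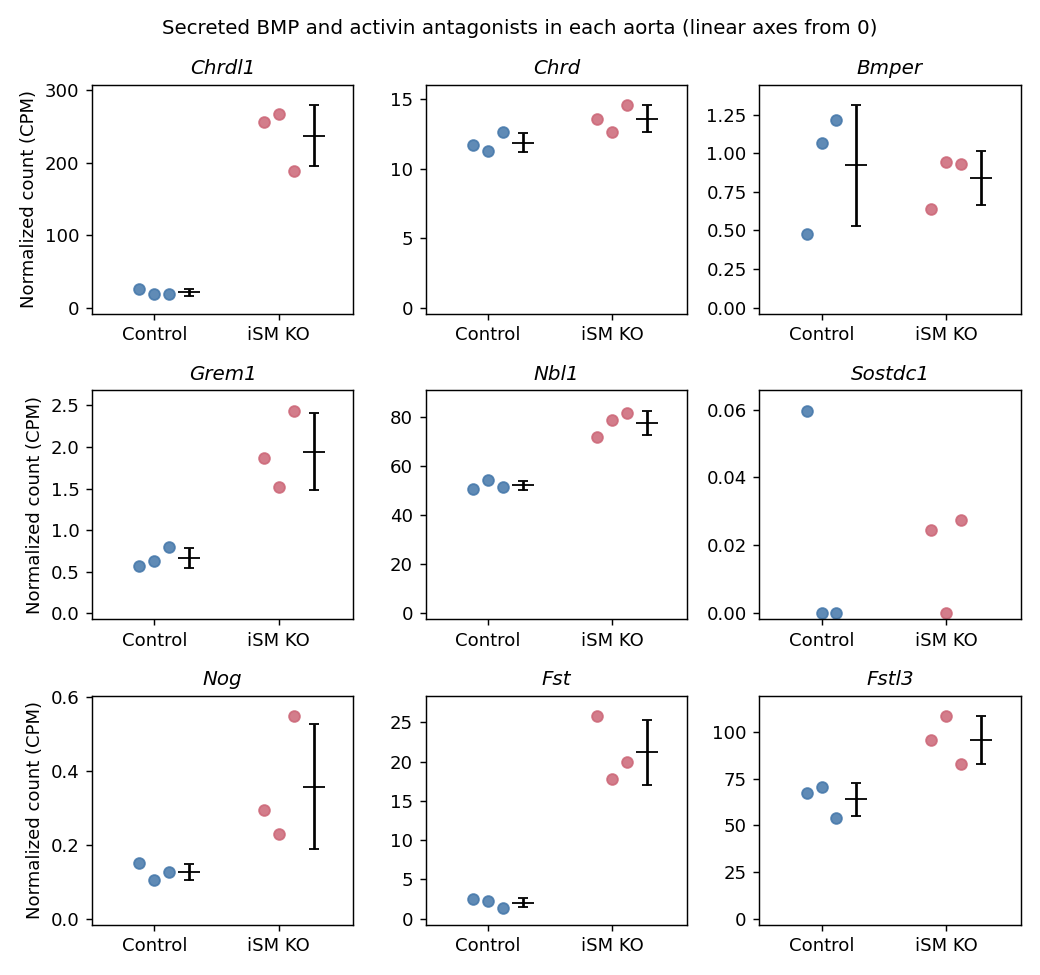
Normalized counts (CPM, scaled by TMM) of the 9 antagonist genes, 1 point per aorta (Control blue, iSM KO red), with the mean and SD of 3 mice in black, left out for Sostdc1, which had at most 2 counts per library. Chrdl1 and Fst have the largest ratios of group means, 20.9 against 237 CPM and 2.05 against 21.2 CPM, and Bmper and Sostdc1 overlap.

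Chrdl1 encodes chordin-like 1, a secreted protein with cysteine-rich repeats of the chordin type that binds BMPs. Its normalized counts were 25.8, 18.3 and 18.6 CPM in Control replicates 1 to 3 and 256, 267 and 189 CPM in iSM KO replicates 1 to 3. The lowest iSM KO library was far above the highest Control library, and iSM KO replicate 3 stood below the other two of its group. The raw counts behind these levels were 443 to 864 in Control and 6904 to 10446 in iSM KO aortas, so counting error was small beside the spread between mice, a coefficient of variation of 20.3% in Control and 17.8% in iSM KO. The edgeR estimate of the log2 fold change was 3.50 (standard error, SE, 0.18, 95% confidence interval 3.10 to 3.91, edgeR FDR = 2.12e-05). Ordered from the most positive log2 fold change down, it was number 17 among the 16565 genes. The estimate stayed between 3.41 and 3.69 when each library was left out in turn. No transcript of another gene matched those of Chrdl1 by at least 95% identity over at least 100 bases.

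Chrd encodes chordin itself, which sequesters BMPs and is cleaved by tolloid proteases. Control libraries held 11.7, 11.3 and 12.6 CPM and iSM KO libraries 13.6, 12.7 and 14.6 CPM. The groups did not overlap, although Control replicate 3 and iSM KO replicate 2 were next to each other. A log2 fold change of 0.20 was estimated (SE 0.10, 95% confidence interval -0.03 to 0.43, edgeR FDR = 0.297), so Chrd was not called. A stretch of 239 exonic bases is shared with Thpo on the opposite strand, a gene with 6 to 35 counts where Chrd had 301 to 554. Whether reads were counted by strand is not stated.

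Bmper encodes a secreted BMP-binding protein that is known from endothelial cells and can dampen or aid BMP signalling depending on its level. Control libraries held 0.48, 1.07 and 1.22 CPM and iSM KO libraries 0.64, 0.95 and 0.93 CPM, from 16 to 41 counts. The groups overlapped, and Control replicate 1 was lowest of all. The estimated log2 fold change was -0.12 (SE 0.38, 95% confidence interval -0.99 to 0.74, edgeR FDR = 0.882). Its sign turned when Control replicate 2 (0.021), Control replicate 3 (0.097) or iSM KO replicate 1 (0.039) was left out. The spread between Control mice, a coefficient of variation of 42.4%, was larger than the 18.7% that counting error gives at these counts.

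Of the DAN family, Grem1 encodes gremlin 1, which binds BMP2, BMP4 and BMP7. Its normalized counts were 0.57, 0.62 and 0.80 CPM in Control and 1.87, 1.52 and 2.44 CPM in iSM KO libraries. All 3 iSM KO libraries were above all 3 Control libraries, but the gene was near the lower end of what was detected, with 19, 24 and 19 counts in Control and 76, 53 and 89 counts in iSM KO aortas. Its log2 fold change came to 1.56 (SE 0.29, 95% confidence interval 0.90 to 2.22, edgeR FDR = 0.0129). It lay between 1.36 and 1.70 with each library left out in turn, and Grem1 stayed past the threshold in all 6 of these fits. Tested against a fold change of 2 itself, it did not pass (edgeR FDR = 0.777).

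Nbl1 encodes DAN, the founding member of that family. Control libraries held 50.5, 54.2 and 51.5 CPM and iSM KO libraries 71.8, 78.7 and 81.6 CPM. The Control libraries lay close together, with a coefficient of variation of 3.61%, and every iSM KO library was above them. The estimate was a log2 fold change of 0.57 (SE 0.077, 95% confidence interval 0.40 to 0.75, edgeR FDR = 0.00286), a fold of 1.49, under the fold of 2 that a call needs. The FDR stayed under 0.05 with each library left out in turn, up to 0.0246.

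Sostdc1, whose product is related to sclerostin and binds both BMPs and a WNT co-receptor, had 2, 0 and 0 counts in Control and 1, 0 and 1 counts in iSM KO libraries. These are at or under the 3 counts that a count of 0 allows, and no fold is given. Nog encodes noggin, which binds BMPs and blocks their receptor contacts. It had 5, 4 and 3 counts in Control and 12, 8 and 20 counts in iSM KO libraries, or 0.149, 0.104 and 0.126 CPM against 0.294, 0.229 and 0.548 CPM. The groups did not overlap, yet Nog missed the filter through the count of iSM KO replicate 2. With no filter on low counts its log2 fold change was 1.48 with an SE of 0.68, and it did not pass (edgeR FDR = 0.289).

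Fst encodes follistatin, which binds activins nearly irreversibly and, more weakly, several BMPs. Its normalized counts were 2.51, 2.29 and 1.34 CPM in Control and 25.8, 17.8 and 19.9 CPM in iSM KO libraries. Each iSM KO library was well above each Control library, with 622 to 1051 counts against 32 to 88. Control replicate 3, the library with the smallest total count, was the lowest. Its log2 fold change was 3.34 (SE 0.22, 95% confidence interval 2.83 to 3.85, edgeR FDR = 7.45e-05), number 23 from the most positive down. It ran from 3.14 to 3.50 with each library left out in turn and was called in all 6 fits. The antisense gene Gm47040 shares 115 exonic bases with Fst and had 0 to 4 counts.

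Fstl3 encodes follistatin-like 3, which binds activins and myostatin but lacks the heparin-binding region of follistatin. Control libraries held 67.3, 70.5 and 54.1 CPM and iSM KO libraries 95.9, 109 and 83.2 CPM. All iSM KO libraries were above all Control libraries. For Fstl3 the log2 fold change was 0.58 (SE 0.13, 95% confidence interval 0.30 to 0.87, edgeR FDR = 0.0253), a fold of 1.50 that is under the fold of 2 for a call. The FDR was over 0.05 without Control replicate 1 (0.0593), Control replicate 3 (0.0624), iSM KO replicate 1 (0.0796) or iSM KO replicate 2 (0.116), and stayed under it in the other 2 fits. Prss57 shares 1157 exonic bases with Fstl3 on the opposite strand and had 3 to 38 counts where Fstl3 had 1290 to 3910.

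**Figure D2:**
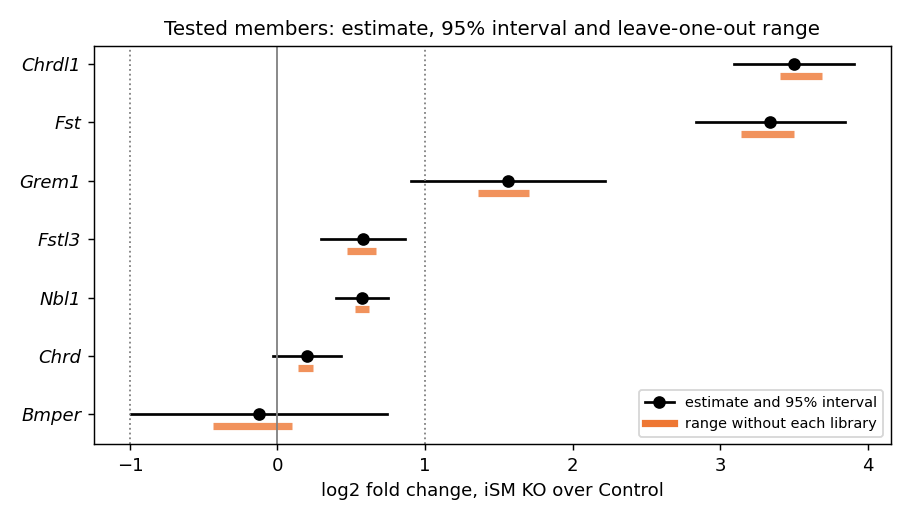
Log2 fold change, iSM KO over Control, of the 7 tested antagonist genes: black points and lines are the edgeR estimate and its 95% confidence interval, orange bars the range of the estimate with each library left out in turn, and dotted lines a fold change of 2. Chrdl1 (3.50) and Fst (3.34) lie apart from the others, and the intervals of Chrd and Bmper cross 0.

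Levels of different genes were compared per kilobase of exon. In Control aortas Fstl3 (26.2 CPM per kilobase) and Nbl1 (25.6) were the most abundant of the 9 and overlapped each other. Chrdl1 (3.09), Chrd (1.90) and Fst (0.446) followed with no overlap between neighbours. Bmper (0.190) and Grem1 (0.160) overlapped, and Nog (0.0746) and Sostdc1 (0.011) came last. In iSM KO aortas Fstl3 (39.2), Nbl1 (38.1) and Chrdl1 (35.1) formed a top group in which neighbours overlapped. The order within this top group depends on the exon length used. For Chrdl1 the union of exons is 6758 bases and the longest transcript 4096. The gap is smaller for Fstl3 (2445 and 1955) and Nbl1 (2033 and 1793). In the same libraries Fst (4.61) had passed Chrd (2.17), Grem1 (0.468) came next, Nog (0.211) overlapped with Bmper (0.173), and Sostdc1 was again last. Placed among the 16534 tested genes with an annotated length, Chrdl1 went from percentile 55.0 in Control to 95.5 in iSM KO aortas, Fst from 16.3 to 66.2 and Grem1 from 4.55 to 17.5. Fstl3 was at percentile 94.0 and 96.1, and Nbl1 at 93.8 and 95.9.

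The summed level of the 9 genes was 59.0, 60.9 and 53.0 CPM per kilobase in Control and 121, 129 and 109.9 CPM per kilobase in iSM KO libraries. The mean was 57.7 ± 4.13 in Control and 120.1 ± 9.66 in iSM KO aortas (SD, n = 3 each), a ratio of 2.08. With these union exon lengths Chrdl1 made up 51.3% of the increase of 62.4 CPM per kilobase, Fstl3 20.9%, Nbl1 20.0% and Fst 6.68%. The share of Chrdl1 in the sum was 4.45% to 6.47% in Control libraries and 25.4% to 31.3% in iSM KO libraries. Without Chrdl1 the sum of the other 8 was 54.6 ± 4.02 against 84.9 ± 4.19 CPM per kilobase (SD, n = 3 each). By class, the sum of the chordin relatives Chrd, Chrdl1 and Bmper was 5.18 ± 0.55 in Control and 37.5 ± 6.08 in iSM KO aortas, a ratio of 7.23. The activin antagonists Fst and Fstl3 summed to 26.6 ± 3.70 and 43.8 ± 5.05, a ratio of 1.65. The DAN family members summed to 25.8 ± 0.91 and 38.6 ± 2.53, a ratio of 1.50, nearly all of it Nbl1.

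**Figure D3:**
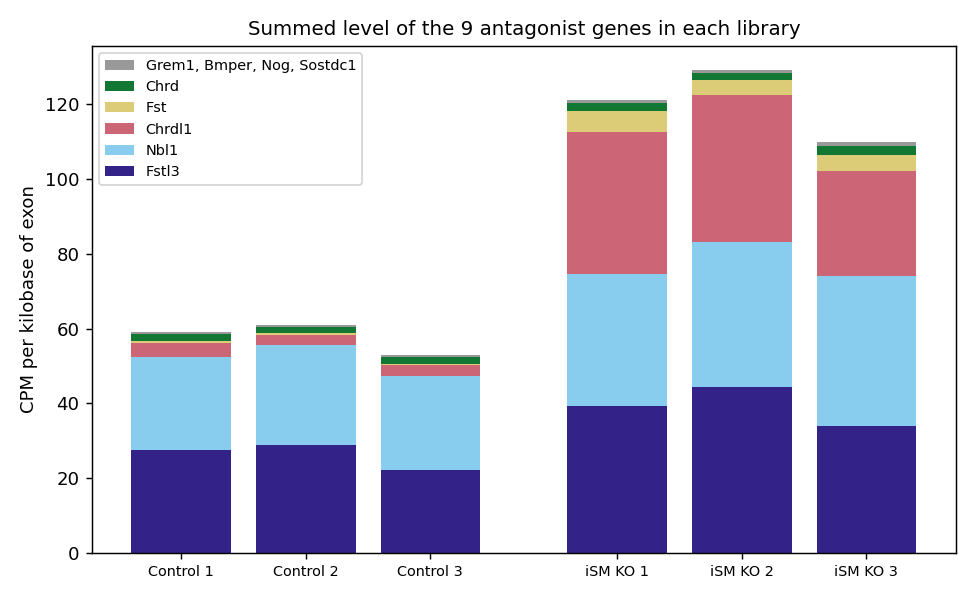
Level of the 9 antagonist genes in each of the 6 libraries, in CPM per kilobase of exon, stacked from 0 by gene. The bars reach 53.0 to 60.9 in Control and 109.9 to 129 in iSM KO aortas, and the Chrdl1 segment is the one that grows most.

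The genes did not follow one order within a group. Among the iSM KO libraries replicate 3 was lowest for Chrdl1 and Fstl3 but highest for Chrd, Grem1, Nbl1 and Nog, and replicate 2 was lowest for Chrd, Grem1, Fst and Nog. Replicate 1 was highest for Fst. Among the Control libraries replicate 3 was lowest for Fst and Fstl3 and highest for Chrd, Grem1 and Bmper.

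The genes whose profile over the 6 libraries came closest to a called antagonist were found by the root mean square difference of log2 CPM, centred on the Control mean. Such a measure picks genes with a like difference between the groups. The matches therefore describe that difference again and support no further claim. For Chrdl1 the closest were Greb1 (0.269), Gm45193 (0.272) and Fst (0.319). Greb1, known as an estrogen-responsive gene, had 0.41 ± 0.16 CPM in Control and 4.53 ± 0.92 CPM in iSM KO mice (SD, n = 3 each). Gm45193 had 0 counts in every Control library and 17 to 34 counts in iSM KO libraries. Its edgeR log2 fold change was 7.70, against 3.50 for Chrdl1, and the prior count of 2 makes the profiles look closer. For Fst the closest genes were Adra2b (0.275), Stc1 (0.300) and Gm9954 (0.302). Stc1 encodes the secreted glycoprotein stanniocalcin 1 and went from 2.31 ± 0.44 to 18.9 ± 1.89 CPM (SD, n = 3 each). Adra2b, an adrenergic receptor gene, had 0 to 2 counts in Control and 22 to 33 counts in iSM KO libraries, and Gm9954 had 0 counts in Control and 14 to 28 in iSM KO libraries. The edgeR log2 fold change of Gm9954 was 7.33, against 3.34 for Fst. For Grem1 the closest genes were Scg5 (0.194), Rab7b (0.226) and Hgf (0.236). Greb1, Gm45193, Adra2b, Gm9954 and Scg5 passed the filter through the iSM KO libraries alone. Hgf, which encodes hepatocyte growth factor, went from 2.64 ± 0.48 to 8.0 ± 1.09 CPM and Rab7b, a small GTPase gene, from 1.33 ± 0.12 to 3.21 ± 0.44 CPM (SD, n = 3 each).

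Scg5, which encodes a chaperone of the proprotein convertase PCSK2, is also the nearest tested gene on one side of Grem1, at a distance of 17.72 kb. It had 5, 5 and 3 counts in Control and 18, 12 and 25 counts in iSM KO libraries. Its log2 fold change was 1.83 (SE 0.44, edgeR FDR = 0.0381), and the call was lost with each of the 6 libraries left out in turn, with an FDR of up to 0.101. On the other side Fmn1, 29.4 kb away, had a log2 fold change of 0.12 (edgeR FDR = 0.624). The nearest tested genes to Chrdl1, Ammecr1 at 318.9 kb and Pak3 at 124.3 kb, had log2 fold changes of 0.14 and 0.53 and were not called. Those nearest to Fst, Ndufs4 at 64.03 kb and Mocs2 at 359.3 kb, had log2 fold changes of -0.12 and -0.10 and were not called either.

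Beyond the 9 genes, 93 other genes of the pathway were looked up in 6 lists, and 67 of them were tested. Of the 67, 1 was called higher and 2 lower, and their median log2 fold change was -0.058. Over all tested genes 1.40% were called higher and 1.38% lower, the shares to set beside this and each list below. The list of other antagonists and modulators held 25 genes, of which 17 were tested, with a median of -0.14, 1 called higher and none lower. The called gene was Tmeff2, which encodes a membrane protein with follistatin-like modules and had 4.60, 4.09 and 4.19 CPM in Control and 24.3, 21.2 and 16.8 CPM in iSM KO libraries. Its log2 fold change was 2.28 (SE 0.15, edgeR FDR = 7.45e-05), and it was called in all 6 fits that left out a library.

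Other antagonists named after their values were seen included the most abundant one. Sost, which encodes sclerostin, mainly a WNT antagonist, had 632, 926 and 776 CPM in Control and 779, 665 and 518 CPM in iSM KO libraries. The groups overlapped, and the log2 fold change was -0.25 (SE 0.17, edgeR FDR = 0.438). At 377 CPM per kilobase in Control aortas, Sost was above the sum of the 9 genes. So were Fstl1 (108), Smoc1 (106) and Htra1 (104) of the same list. Htra3 and Htra1, which encode secreted serine proteases that can inhibit TGF-β family signalling, had log2 fold changes of -0.80 (edgeR FDR = 0.00100) and -0.29 (edgeR FDR = 0.0490), both under the fold of 2.

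Among the ligands, 12 of 26 were tested and none was called, with a median log2 fold change of 0.12 and an FDR under 0.05 for 1. The smallest FDRs were those of Inhbb, which encodes the βB subunit of activins, and Bmp2. Inhbb had 8.54, 5.70 and 4.78 CPM in Control and 10.1, 14.2 and 10.7 CPM in iSM KO libraries, with a log2 fold change of 0.88 (SE 0.22, edgeR FDR = 0.0444). Without Control replicate 1 it passed the threshold (1.15, edgeR FDR = 0.0141), and without any other single library its FDR was over 0.05. Bmp2 had 12, 13.4 and 13.6 CPM against 20.7, 14.7 and 21.5 CPM, a log2 fold change of 0.55 (edgeR FDR = 0.0565). Inhba, the βA activin subunit gene named after its values were seen, was the most abundant activin ligand gene at 16.4 ± 0.52 CPM per kilobase in Control and 14.6 ± 0.78 in iSM KO aortas (SD, n = 3 each, edgeR FDR = 0.218). The level of Fst per kilobase was thus under that of Inhba in both groups, and that of Fstl3 above it.

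Of 6 proteases that process BMPs or chordin 4 were tested and none was called, with a median of 0.12. Pcsk6, a proprotein convertase gene, had a log2 fold change of -0.93 (SE 0.10, edgeR FDR = 0.00105), which passed the fold of 2 only without Control replicate 3 (-1.01). Pcsk5, of the same family, had one of 0.65 (SE 0.11, edgeR FDR = 0.00897). All 13 receptors and co-receptors were tested, with a median of -0.21 and 1 called lower. This was Acvr1c, a type I receptor gene, at 0.54, 1.20 and 0.96 CPM in Control and 0.27, 0.17 and 0.22 CPM in iSM KO libraries. Its log2 fold change was -2.01 (SE 0.41, edgeR FDR = 0.0200), and it was called without Control replicate 1 but not with any of the other 5 libraries left out (FDR 0.0531 to 0.0968).

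All 8 SMAD genes were tested and none was called, with a median of -0.053. Smad1, a SMAD of the BMP branch, had the smallest FDR, with 27.8, 25.8 and 24.2 CPM in Control and 39.8, 34.9 and 33.0 CPM in iSM KO libraries, a log2 fold change of 0.47 (SE 0.098, edgeR FDR = 0.0218). Smad9 of the same branch followed with -0.22 (edgeR FDR = 0.197). The list of genes known to respond to BMPs held 17, among them Smad6 and Smad7, which are also in the SMAD list. Of its 15 tested genes 1 was called lower and none higher, with a median of -0.13. Id1 encodes an inhibitor of basic helix-loop-helix factors and had 54.6, 92.1 and 105.7 CPM in Control and 54.0, 32.6 and 36.8 CPM in iSM KO libraries. Control replicate 1 and iSM KO replicate 1 nearly met. Its log2 fold change was -1.03 (SE 0.25, edgeR FDR = 0.0401), and the call was lost without Control replicate 2 (FDR 0.0856), Control replicate 3 (FDR 0.130), iSM KO replicate 2 (FDR 0.156) or iSM KO replicate 3 (FDR 0.0983). Id4, named after its values were seen as the other gene of the list with an FDR under 0.05, had a log2 fold change of -0.78 (edgeR FDR = 0.00560). No protein, phosphorylated SMAD or ligand activity was measured in these samples.

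**Figure D4:**
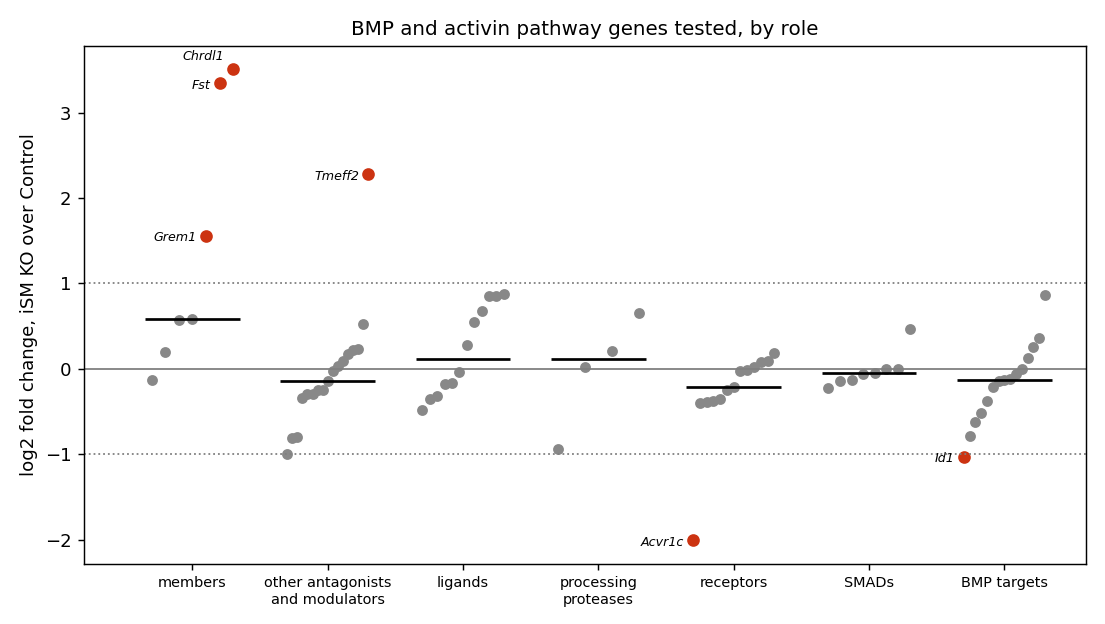
Log2 fold change, iSM KO over Control, of each tested gene of the group of 9 (members) and of the 6 other pathway lists, ordered by value within a list, with the list median as a black bar and a fold change of 2 as dotted lines. Red points are the 6 genes called, 3 higher among the 9 (Chrdl1, Fst and Grem1), 1 higher among the other antagonists (Tmeff2), and 2 lower (Acvr1c and Id1).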

How the data were processed

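Aortic RNA was extracted with TRIzol, ribosomal RNA was depleted (RiboErase) and paired-end reads were sequenced. The authors mapped and quantified reads with DRAGEN against mm10 with Ensembl release 101 and deposited estimated counts per gene, neither normalized nor rounded. The DRAGEN version, strand setting and treatment of reads matching several genes are not given in the sources used here. Column names gave the sample of every deposited column.

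Here the estimated counts were rounded, and a gene was tested if every sample of 1 group or both had more than 10 counts, following the methods of the study, which used DESeq2. The tests were made in R 4.3.3 with edgeR 4.0.16 (TMM scaling, quasi-likelihood test, all 6 libraries, no covariates, Benjamini-Hochberg adjustment over all genes tested). Each script's fit was tested on simulated data. Groups were taken from the labels. The labels number 3 aortas per group, and the methods of the study give 3 iSM KO and 3 control mice. With 3 against 3 mice no exact permutation p under 0.1 is possible for a single gene. Intervals of the fits are 95% confidence intervals.

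The 9 genes, the pathway and marker lists and the tests were chosen with earlier results of these data known. The genes named were the 9, Prdm16, genes of a pathway list past the threshold or, for lists with none, the 2 with the smallest FDR, and for each called antagonist the 3 genes nearest in profile (prior count 2 on the log2 CPM scale) and the tested gene on each side. The result of 1 further pathway gene is not reported here, and counts over the lists leave it out. Exons and positions came from GENCODE M21 (GRCm38), near-identical transcripts from blastn 2.17.0, and promoter windows from RefSeq. Exon lengths are unions over transcripts. Alternatives were DESeq2 1.42.0, limma-voom (limma 3.58.1), DESeq2's size factors, 2 other filters, the replicate number as a block, a test against a fold change of 2, each library left out, and other lengths or scaling for levels. Depth was 24911609 to 40460467 counts per library, and a count of 0 allows 3 counts, covering counting error only.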

Additional observations from a re-analysis of the deposited data

How the results depend on the processing

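Chrdl1 and Fst were called higher under every alternative tried, and Grem1 under all but the test against a fold change of 2, which left 2 of the 3 calls. Bmper was the antagonist whose sign turned, to 0.021, 0.097 and 0.039 without Control replicate 2, Control replicate 3 or iSM KO replicate 1, in a range from -0.44 to 0.097. With each library left out, 3 antagonists were called higher and 0 lower. The median over the antagonists, 0.58, was 1.13 without iSM KO replicate 2, where Nog passed the filter. Against a fold change of 2 itself, 64 genes were higher and 31 lower, in place of 232 and 229, and with no filter 349 were lower. With each library left out, 162 to 243 genes were higher and 128 to 317 lower, lowest without iSM KO replicate 2 (162 and 128), and without iSM KO replicate 1 133 were lower. Over the other pathway lists 1 to 3 genes were higher, 3 without Control replicate 1, and 0 to 2 lower, with 0 against a fold change of 2 and 1 or 0 without Control replicate 3 or an iSM KO replicate. The sum of the 9 levels, 57.7 in Control and 120.1 in iSM KO aortas, was 70.8 and 161 per longest transcript, 42.5 and 96.2 as TPM (transcripts scaled by length and library sum), and 71.7 and 163 per longest protein-coding transcript, a choice made after seeing the data. It ran from 56.0 to 59.97 and 115.5 to 125 with a library left out. The cause of these shifts was not tested. The order and shares of single genes were given for union exon lengths only.

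The sources do not state whether the replicate numbers pair the samples. Deviations from the group means of same-numbered libraries correlated at -0.132, -0.046 and -0.107 over genes. Centring on a mean of 3 libraries ties such correlations to one another, so they cannot exclude pairing. With the replicate number as a block, 775 genes had an FDR under 0.05 in place of 1252, and 1711 with DESeq2. In the block fit 0 of the other pathway genes were lower, with Acvr1c at an FDR of 0.0661 and Id1 at 0.105, while the 3 antagonists called higher were the same in number.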
